A study of Mus musculus with 4 samples.

Results

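The 46 genes described here encode the DNA replication machinery, the proteins that license origins, unwind DNA and copy it. They were taken by symbol from a list made with earlier results of these data known. The deposited count table holds 55357 gene identifiers. All 46 genes matched 1 identifier each and passed the filter on low counts, as did 17422 genes in all. The cells came from testes of C57BL/6 mice aged 7 days, and the groups were DDX20 RIP (RNA precipitated with an antibody to DDX20, 2 libraries) and input (10% of the total RNA, 2 libraries). No genotype, transgene or treatment other than ultraviolet light at 254 nm and 200 mJ per square cm, which crosslinks RNA to the protein it touches, is given in the labels for either group, and the catalogue numbers given for the antibody differ by 1 character between the RIP samples. DDX20 is a DEAD-box RNA helicase of the SMN complex, the assembly line of spliceosomal particles. The comparison asks which messages make up a larger or smaller share of the precipitate than of the input; no precipitation with a control antibody was analysed here, so a higher share is not shown to be binding by DDX20.

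Replication starts in G1, when the origin recognition complex, with Cdc6 and Cdt1, loads the MCM hexamer onto DNA. In S phase Cdc45 and the GINS complex join the hexamer to form the CMG helicase, DNA polymerases alpha, epsilon and delta copy the strands, and replication factor C loads the sliding clamp PCNA. Most of these genes are switched on by E2F factors at the entry into S phase. In the testis of the first postnatal week the dividing cells include spermatogonia and Sertoli cells. The RNA came from mixed cells, so the libraries do not show which cell type a message came from.

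The libraries held 38458014 and 37927689 counts for RIP and 21913977 and 21416567 for input. Markers of the cell types of the testis were detected. The 8 Sertoli cell markers summed to 2140 to 2146 CPM (counts per 1000000, scaled by trimmed mean of M values, TMM) in RIP and 3370 to 3401 CPM in input, and the 8 germ cell markers to 232 to 236 CPM in RIP and 597 to 602 CPM in input. Sums were also lower in RIP for 5 Leydig cell markers (146 to 149 CPM in RIP, 312 to 321 CPM in input), 4 markers of peritubular and stromal cells (708 to 723 CPM in RIP, 1135 to 1144 CPM in input), 3 endothelial markers (19.5 to 20.5 CPM in RIP, 54.8 to 57 CPM in input), 4 macrophage markers (30.0 to 31.2 CPM in RIP, 101 to 104 CPM in input) and 2 haemoglobin genes of red blood cells (67.8 to 68.7 CPM in RIP, 236 to 237 CPM in input). The 4 markers of organs other than the testis summed to 12.4 to 13.2 CPM in RIP and 36.6 to 39.3 CPM in input. Most of the sum was Myh6 in RIP (7.63 and 7.45 CPM) and Ins2 in input (24.7 and 27.6 CPM). None of these 38 markers was at 0, 3 of them rose (Wt1, Gata4 and Zbtb16) and 30 fell, and their part in the results below was not tested. The message of DDX20 itself stood at 77.6 and 83.2 CPM in RIP, against 41.4 and 41.2 CPM in input (log2 fold change 0.96 ± 0.0552, SE).

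The replication genes together made up 0.738% and 0.742% of all counts in the RIP libraries and 0.521% and 0.518% in the input libraries. Within that larger share, genes rose and fell inside most of the complexes. The catalytic polymerase subunits Pola1, Pole and Pold1 and the 6 MCM motor subunits rose, and all of these have at least 2000 nt of coding sequence. Of the 11 genes with under 1000 nt of coding sequence 9 fell, Gins3 rose and Rpa2 was not called. The median log2 fold change of these 11 genes was -0.61, and that of all genes tested in this length class was -0.76. At a Benjamini-Hochberg adjusted p under 0.05, taken over every tested gene in the edgeR quasi-likelihood fit, 24 of the 46 genes rose, 19 fell and 3 were not called. Of all genes tested 38.7% rose and 38.6% fell, the shares to set beside each count of a sub-group or list below. Of the 46 genes, 15 rose by at least 2-fold and 3 fell by at least 2-fold, against 17.1% and 23.5% of all genes tested. The median log2 fold change, RIP over input, was 0.35 for the replication genes and -0.05 for all genes tested.

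The plot of levels shows how close the replicates lay. Both RIP libraries lay above both input libraries for 26 genes and below them for 20, while 42.7% and 45.3% of all genes tested did so. A lack of overlap thus sets none of the 46 genes apart. With library totals in place of TMM scaling 21 replication genes rose and 22 fell, against 28.7% and 50.8% of all genes tested, the median of all genes moved to -0.40 and that of the replication genes to 0.00. Fold changes below are relative to TMM scaling, and total counts lower each of them by about the same amount.

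**Figure D1:**
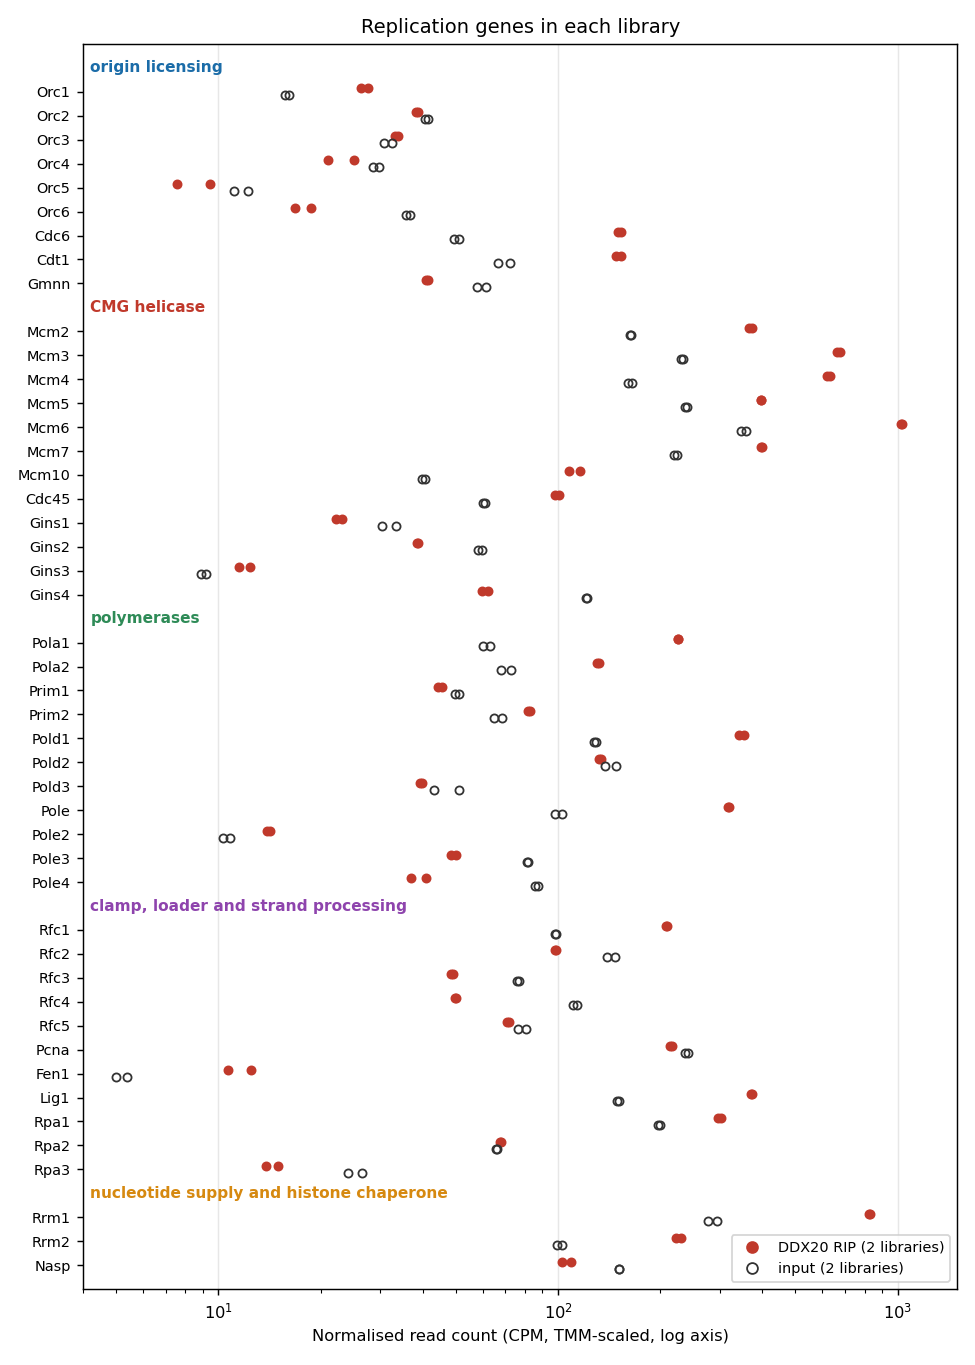
Normalised read count (CPM on a log axis) of each of the 46 replication genes in the 2 DDX20 RIP libraries (filled red points) and the 2 input libraries (open points), by sub-group. The RIP points of Mcm6 sit at 1027 and 1021 CPM, against 345 and 357 CPM for input, and the points of Rfc4, Gins4 and Pole4 run the other way.

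Among origin licensing genes the loading factors rose and most of the origin recognition complex did not. Of 9 genes 3 rose, 4 fell and 2 were not called. Cdc6, the ATPase that brings the helicase to the origin, had 153 and 150 CPM in RIP, against 51.0 and 49.3 CPM in input, a log2 fold change of 1.59 ± 0.0438 (SE, n = 2 libraries per group, as for all such values). Cdt1, its partner in loading, had 153 and 148 CPM in RIP, against 72.0 and 66.5 CPM in input (1.12 ± 0.0434). Gmnn, whose protein geminin blocks Cdt1 after the start of S phase, had 41.4 and 41.0 CPM in RIP, against 61.2 and 57.9 CPM in input (-0.53 ± 0.0592). So the inhibitor lay lower in both RIP libraries than in either input library, and both loading factors lay higher. The lower level of Gmnn was not kept after the length offsets described below. Gmnn was not called after the offset for coding length (0.11) and was called higher after that for exonic length (0.38). Cdc6 and Cdt1 were called higher after either offset.

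Within the origin recognition complex, Orc1 rose and Orc6 fell most. Orc1, the ATPase subunit that is made anew in each cycle, had 26.3 and 27.5 CPM in RIP, against 16.1 and 15.7 CPM in input (0.76 ± 0.0850). Orc6, the smallest subunit, had 18.8 and 16.8 CPM in RIP, against 35.6 and 36.6 CPM in input (-1.02 ± 0.0795). The other subunits lay between them. Orc4 (-0.34 ± 0.0833) and Orc5 (-0.46 ± 0.129) fell, and Orc2 (-0.09 ± 0.0646) and Orc3 (0.08 ± 0.0710) were not called, with adjusted p of 0.186 and 0.286 in edgeR's test; Orc2 was called lower with total counts (-0.44), as was Orc3 (-0.27). Orc4 lost its call without RIP replicate 2 (-0.18), input replicate 1 (-0.29) or input replicate 2 (-0.37), and Orc5 without RIP replicate 2 (-0.26) or input replicate 1 (-0.37). In Orc2, 29.8% of the exonic bases are shared with exons of Nif3l1, so its reads may be split between the genes.

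All 6 subunits of the MCM hexamer, the motor of the replicative helicase, rose. Mcm4 led all 46 replication genes, with 633 and 621 CPM in RIP, against 165 and 161 CPM in input, a log2 fold change of 1.94 ± 0.0288. Mcm6 was the most abundant, with 1027 and 1021 CPM in RIP, against 345 and 357 CPM in input (1.55 ± 0.0255). Neither gene's libraries overlapped between the groups, as was so for all 46 genes. Mcm3 (1.52 ± 0.0273) and Mcm2 (1.17 ± 0.0307) followed, and Mcm7 (0.84 ± 0.0289) and Mcm5 (0.73 ± 0.0286) rose least. Although the hexamer holds its subunits in equal number, their log2 fold changes spanned 1.21. Mcm10, which binds the active helicase, rose by 1.48 ± 0.0510, and Cdc45, the helicase cofactor, by 0.72 ± 0.0463. Mcm4 lies on chromosome 16 from 15623897 to 15637400 and Mcm6 on chromosome 1 from 128331590 to 128359664, both on the minus strand (GRCm38, GENCODE M21).

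The promoters shown are those of the 4 MCM hexamer genes in which an E2F-type word was found, a kind of word known from genes of S phase. RefSeq promoters (GRCm38.p6, 250 bases before to 50 after a start site) were at hand for 38 of the 46 genes. The words TTTGGCGC, TTTCCCGC, TTTGCCGC and TTTCGCGC were searched on both strands, and overlapping words were each counted. At least 1 word was found in 16 of these 38 genes (42.1%), in 704 of 27025 genes with a promoter (2.6%) and in 540 of the 12111 tested genes that matched by symbol (4.46%). By sub-group the words were found in 4 of 8 licensing genes, 5 of 8 helicase genes, 5 of 9 polymerase genes, 2 of 10 clamp, loader and strand processing genes and 0 of 3 others. Capitals mark the words in 4 MCM promoters, written on the coding strand, at chr1:128359656-128359955 (Mcm6), chr1:20820263-20820562 (Mcm3), chr8:75109259-75109558 (Mcm5) and chr5:138171834-138172133 (Mcm7).
Mcm6: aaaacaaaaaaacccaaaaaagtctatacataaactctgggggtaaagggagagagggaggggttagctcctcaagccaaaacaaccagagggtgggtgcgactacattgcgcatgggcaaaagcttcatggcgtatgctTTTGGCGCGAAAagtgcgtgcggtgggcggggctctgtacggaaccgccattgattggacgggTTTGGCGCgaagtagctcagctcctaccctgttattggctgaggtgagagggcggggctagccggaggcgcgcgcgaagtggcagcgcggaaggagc
Mcm3: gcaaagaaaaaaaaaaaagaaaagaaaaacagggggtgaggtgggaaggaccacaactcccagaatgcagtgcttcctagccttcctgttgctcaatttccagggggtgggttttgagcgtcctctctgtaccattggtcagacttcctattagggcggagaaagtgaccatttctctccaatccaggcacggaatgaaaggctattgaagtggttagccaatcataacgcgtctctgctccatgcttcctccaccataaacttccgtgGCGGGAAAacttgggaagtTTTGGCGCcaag
Mcm5: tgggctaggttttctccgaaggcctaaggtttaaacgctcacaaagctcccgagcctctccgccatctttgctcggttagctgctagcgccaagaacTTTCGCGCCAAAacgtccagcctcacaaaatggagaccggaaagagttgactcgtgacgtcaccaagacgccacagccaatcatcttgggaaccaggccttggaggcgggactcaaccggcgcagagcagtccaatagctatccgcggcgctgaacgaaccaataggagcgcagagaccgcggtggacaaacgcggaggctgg
Mcm7: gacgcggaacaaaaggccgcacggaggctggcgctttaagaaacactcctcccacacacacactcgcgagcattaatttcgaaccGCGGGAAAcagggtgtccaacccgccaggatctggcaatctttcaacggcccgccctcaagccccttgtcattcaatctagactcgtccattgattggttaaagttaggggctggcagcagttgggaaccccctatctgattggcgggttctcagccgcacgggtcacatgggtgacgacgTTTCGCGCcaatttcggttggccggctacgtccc
Mcm7 has a second listed window with no word. Mcm2 and Mcm10, which also rose, had 0 words, and Mcm4 had no matching entry. In Mcm6 and Mcm5 words of opposite strands overlap in 1 capital run. The 16 genes with a word had a median log2 fold change of 0.80, from -1.15 to 1.87, and the 22 without had -0.10, from -1.17 to 1.53, so the ranges overlapped almost entirely. A word in a promoter is a match of letters, and the libraries here do not measure transcription.

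The GINS subunits, small partners of the MCM hexamer, mostly fell. Gins4 had 62.4 and 59.9 CPM in RIP, against 121 and 122 CPM in input (-0.99 ± 0.0438). Gins2 had 38.4 and 38.7 CPM in RIP, against 59.8 and 58.2 CPM in input (-0.61 ± 0.0596). Both lay lower in each RIP library than in either input library, and Gins1 also fell (-0.49 ± 0.0777). Gins3 differed from its 3 partners and rose, with 11.5 and 12.4 CPM in RIP, against 8.92 and 9.19 CPM in input (0.40 ± 0.120), though it was not called with total counts (0.05). After the offset for coding length Gins1 was called higher (0.19), Gins2 was not called (0.11) and Gins4 stayed lower (-0.41). In Gins2, 67.3% of exonic bases are shared with exons of Gse1, so its counts are uncertain. Of the 12 helicase genes 9 rose and 3 fell.

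**Figure D2:**
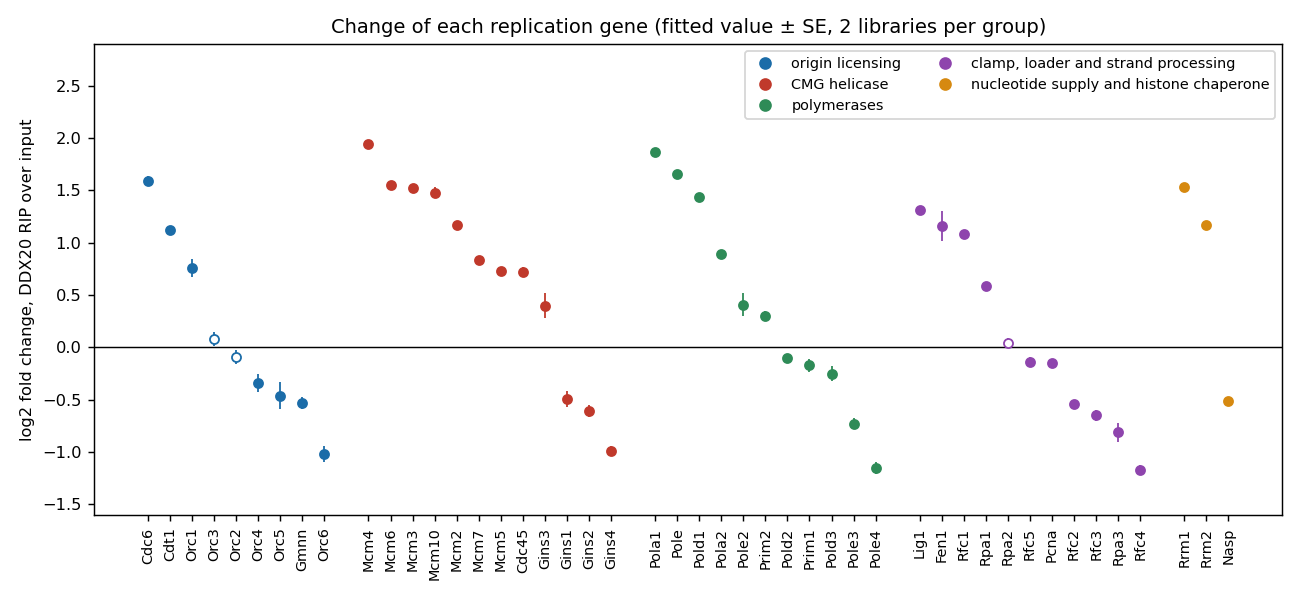
Log2 fold change of each replication gene, DDX20 RIP over input (fitted value ± SE, 2 libraries per group), in the order of size within each sub-group; open points were not called. The values run from -1.17 for Rfc4 to 1.94 for Mcm4, and each sub-group holds genes on both sides of 0.

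Among DNA polymerase genes the catalytic subunits of the 3 replicative enzymes rose most. Pola1, the catalytic subunit of polymerase alpha that starts each strand, had 225 and 226 CPM in RIP, against 63.1 and 60.2 CPM in input, a log2 fold change of 1.87 ± 0.0395. Pole, the catalytic subunit of the leading-strand polymerase epsilon, had 319 and 316 CPM in RIP, against 103 and 97.9 CPM in input (1.66 ± 0.0348). Pold1, the catalytic subunit of the lagging-strand polymerase delta, rose by 1.44 ± 0.0326. All 3 catalytic subunits thus rose by more than 2-fold. They also have the longest coding sequences of their complexes. After the offset for coding length described below, Pola1 stood at 0.66, Pold1 at 0.43 and Pole at 0.18, against 0.49 for Pola2.

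The histone-fold subunits of polymerase epsilon fell. Pole4 had 37.0 and 40.9 CPM in RIP, against 87.5 and 85.5 CPM in input (-1.15 ± 0.0557). Pole3 had 48.3 and 50.1 CPM in RIP, against 81.3 and 81.6 CPM in input (-0.73 ± 0.0515). The messages of 1 enzyme therefore spanned 2.81 on the log2 scale, from Pole4 to Pole, the widest span among 9 complexes. After the offset for coding length Pole3 was called higher (0.22) and Pole4 was not called (-0.05). Pole2, the noncatalytic B subunit, rose by 0.41 ± 0.111 but stood at 0.06 with total counts, where it was not called. Pole lies on chromosome 5 from 110286306 to 110337474 on the plus strand and Pole4 on chromosome 6 from 82618992 to 82705365 on the minus strand (GRCm38).

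Of the remaining polymerase subunits Pola2, the B subunit of polymerase alpha, rose most (0.89 ± 0.0432). Prim2, the large subunit of primase, rose by 0.30 ± 0.0484, a value that total counts moved to -0.05. Pold3, an accessory subunit of polymerase delta, fell by 0.25 (SE 0.0690) and lost its call without input replicate 1 (-0.10). Prim1, the catalytic subunit of primase, and Pold2, the B subunit of polymerase delta, were called lower at -0.17 ± 0.0602 and -0.10 ± 0.0386. Prim1 was no longer called when any 1 library was left out (-0.17 to -0.11), and neither was Pold2 without RIP replicate 1 (-0.05), RIP replicate 2 (-0.07) or input replicate 1 (-0.03). In all 6 of 11 polymerase genes rose and 5 fell.

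Replication factor C, the clamp loader, split between its large subunit and the 4 small ones. Rfc1, the large subunit, had 208 and 209 CPM in RIP, against 98.0 and 98.5 CPM in input (1.08 ± 0.0363). Rfc4 fell most of all 46 genes, with 50.1 and 49.9 CPM in RIP, against 111 and 114 CPM in input (-1.17 ± 0.0465). Rfc3 (-0.65 ± 0.0522) and Rfc2 (-0.54 ± 0.0399) fell as well. Rfc5 was called lower at -0.14 ± 0.0481, and lost its call without RIP replicate 1 (-0.09), RIP replicate 2 (-0.11) or input replicate 2 (-0.10). Exons of Eif4a2 share 12.7% of the exonic bases of Rfc4, which lies on chromosome 16 from 23113943 to 23127737, and exons of Lat2 share 15.1% of those of Rfc2. The clamp itself, Pcna, was close to level, with 217 and 214 CPM in RIP, against 237 and 242 CPM in input (-0.15 ± 0.0313); the annotation lists 2 pseudogenes of Pcna, with which reads can be shared.

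Among genes of strand joining and protection, Lig1 and Rpa3 stood at opposite ends. Lig1, the ligase that seals Okazaki fragments, had 369 and 372 CPM in RIP, against 149 and 151 CPM in input (1.31 ± 0.0309). Fen1, the nuclease that trims their flaps, had 12.5 and 10.7 CPM in RIP, against 5.39 and 5.01 CPM in input (1.16 ± 0.140). Exons of Tmem258 and Gm10143 share 84.2% of the exonic bases of Fen1, and its low counts may miss most of its reads. In replication protein A, which coats single-stranded DNA, the order followed subunit size. Rpa1, the large subunit, rose by 0.59 ± 0.0308, and Rpa2 was not called (0.04 ± 0.050; adjusted p = 0.497 in edgeR's test), though it was called lower with total counts (-0.31). Rpa3, the smallest subunit, had 13.8 and 15 CPM in RIP, against 24.1 and 26.4 CPM in input (-0.81 ± 0.0907). Of these 11 clamp, loader and strand processing genes 4 rose, 6 fell and 1 was not called.

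Both subunits of ribonucleotide reductase, which makes deoxynucleotides, rose. Rrm1, the large subunit, had 827 and 821 CPM in RIP, against 293 and 277 CPM in input (1.53 ± 0.0275). Rrm2, the subunit that limits the enzyme outside S phase, had 231 and 223 CPM in RIP, against 103 and 99.1 CPM in input (1.17 ± 0.0367). Nasp, a chaperone of histones H1, H3 and H4, had 103 and 109 CPM in RIP, against 151 and 151 CPM in input (-0.51 ± 0.0389). None of these 3 genes had libraries that overlapped between RIP and input, as was so for all 46 genes. The annotation lists 1 pseudogene of Nasp.

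Per length of message the order of the genes differed between RIP and input. Scaled by the length of 1 reference transcript per gene, Mcm6 was highest in RIP at 352 CPM per kb, followed by Mcm3 at 220 and Rrm1 at 206 CPM per kb. Pcna stood at 142 CPM per kb in RIP and 157 CPM per kb in input, where it was the highest, followed by Mcm6 at 121 CPM per kb. Rfc4, next in input, stood at 40.7 CPM per kb in RIP and 91.9 CPM per kb in input. The lowest levels were those of Orc5 in RIP (4.03 CPM per kb) and Fen1 in input (2.19 CPM per kb).

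The split within complexes followed coding length. Coding sequences of the 46 genes ran from 354 nt in Pole4 to 6849 nt in Pole. Of 15 genes with at least 2000 nt of coding sequence 14 rose and 0 fell, the other being Orc3, with a median log2 fold change of 1.44; of 20 genes from 1000 to under 2000 nt 9 rose and 10 fell (median -0.10); and of 11 shorter genes 1 rose and 9 fell (median -0.61). All genes tested in these length classes, apart from 88 genes of far longer coding sequence than any of the 46, had medians of 0.99, 0.17 and -0.76. The shares of all genes called higher or lower in each class were not computed. Across the 46 genes Spearman's rho between coding length and log2 fold change was 0.83, and across 14680 tested genes with a coding sequence it was 0.64; all of these values come from the same 4 libraries. In 7 of 9 complexes the subunit with the longest coding sequence had the highest log2 fold change, the exceptions being the MCM hexamer and GINS.

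**Figure D3:**
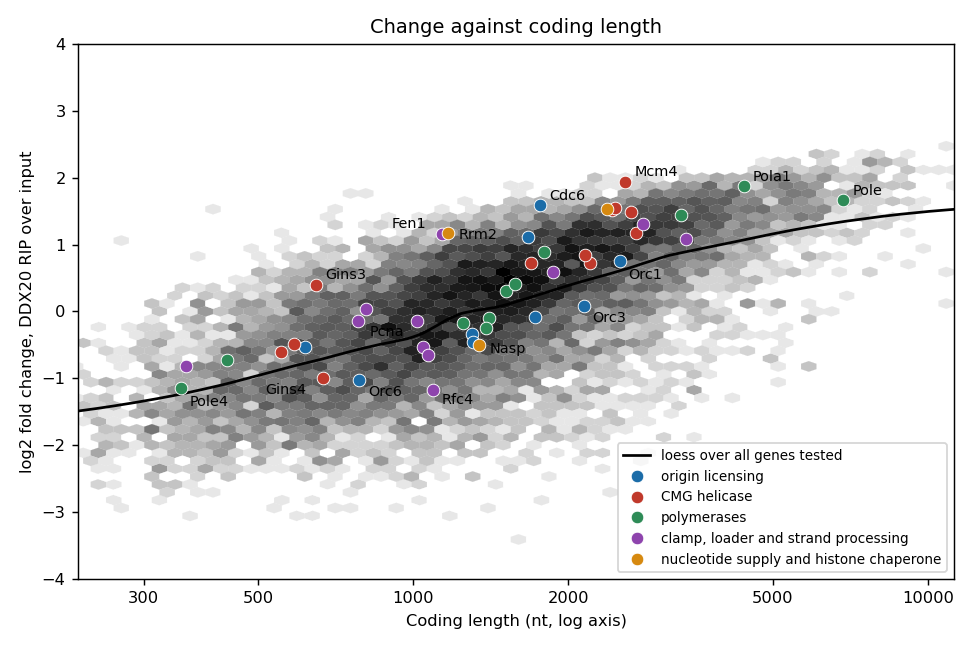
Log2 fold change, DDX20 RIP over input, against coding length (log axis) for all tested genes with a coding sequence (grey, darker where genes are denser), with the loess curve over them (black) and the replication genes in colour. The short Pole4 (-1.15) and the long Pole (1.66) both lie near the curve, Cdc6 (1.59), Rrm2 (1.17) and Fen1 (1.16) lie above it, and Rfc4 (-1.17) lies below it.

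When the trend of all genes with coding length was taken out as an offset on the RIP libraries, part of the split closed. The SD over the 46 log2 fold changes was 0.56 after the offset, against 0.92 before it. Of the 46 genes 25 were then higher and 13 lower, against 37.9% and 35.5% of the 14680 genes in that fit, with a median of 0.16 for the replication genes and 0.00 for all genes. At least 2-fold differences were called for 5 higher genes and 1 lower gene. The subunits of polymerase epsilon, which had spanned 2.81, then spanned 0.27, and those of replication protein A spanned 0.30, against 1.40 before. The MCM hexamer narrowed little, to 1.06 from Mcm5 to Mcm4, and GINS did not narrow (1.41). With an offset for exonic length in place of coding length, Pole stood at 0.94 and Pole4 at -0.72.

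After the offset the helicase loaders and the origin recognition complex lay apart. Cdc6 stood at 1.2 ± 0.0442 and Cdt1 at 0.79 ± 0.0427, whereas 5 of 6 origin recognition subunits were called lower, between -0.60 for Orc5 and -0.46 for Orc2, and Orc1 was not called (0.02). All 6 MCM subunits were called higher, from 0.12 for Mcm5 to 1.18 for Mcm4. Fen1 (1.18 ± 0.143), Rrm2 (1.15 ± 0.0363) and Gins3 (1.00 ± 0.123) were the other genes near a 2-fold increase. Of these, Fen1 has low counts and shares 84.2% of its exonic bases with other genes. Gins3 was not called with total counts and no offset (0.05). Rfc4 (-1.07 ± 0.0462), Nasp (-0.66 ± 0.0388) and Rfc3 (-0.50 ± 0.0534) were the lowest outside the origin recognition complex. Pcna, lower before, was called higher (0.28 ± 0.0309).

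**Figure D4:**
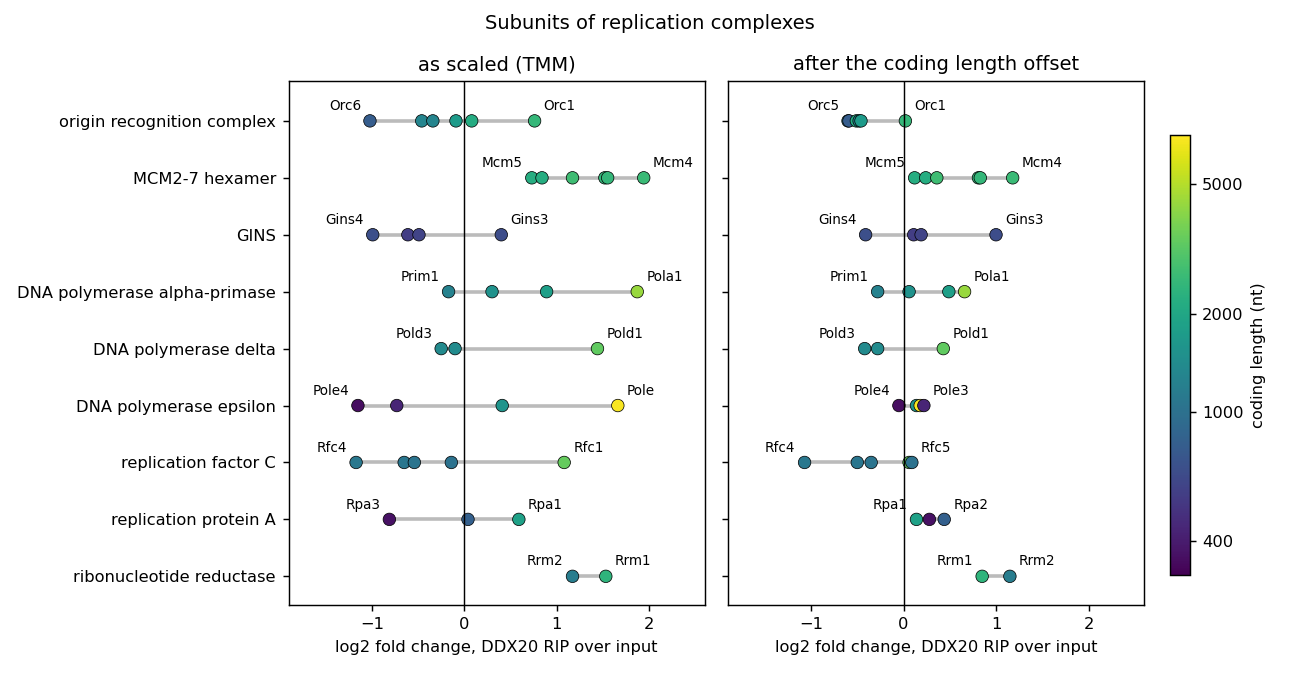
Log2 fold changes of the subunits of 9 replication complexes, DDX20 RIP over input, as scaled by TMM (left) and after the offset for coding length (right); each point is 1 subunit, coloured by coding length, and the grey bar spans the complex. Polymerase epsilon spans 2.81 on the left and 0.27 on the right, while the MCM hexamer lies above 0 in both panels.

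Genes that work beside the replication machinery ran from -1.74 to 2.01 in log2 fold change, and the 46 replication genes from -1.17 to 1.94. Of 49 such genes 30 rose, 16 fell and 3 were not called, with a median log2 fold change of 0.53. Among all genes tested 38.7% rose and 38.6% fell. The list of origin firing and fork checkpoint factors was the most one-sided, with 15 of 16 genes higher (13 with total counts) and a median of 1.22. Topbp1, a scaffold of origin firing and of checkpoint signalling, had 702 and 682 CPM in RIP, against 176 and 168 CPM in input (2.01 ± 0.0295). Lrwd1, a partner of the origin recognition complex, rose by 0.34 ± 0.0369 and stood at -0.01 with total counts. Tipin (-0.76 ± 0.0605) was the 1 gene of this list that fell, while its partner Timeless rose by 1.92 ± 0.0443. After the coding length offset 11 of the 16 genes were called higher and 4 lower, against 37.9% and 35.5% of all genes in that fit.

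Among alternative clamp loaders, processing enzymes and topoisomerases 7 of 16 genes rose and 6 fell, and after the coding length offset 7 were called higher and 7 lower. Top2b, a topoisomerase, rose by 1.61 ± 0.0338 and Chtf18, the large subunit of an alternative clamp loader, by 1.14 ± 0.0428. Subunits of ribonuclease H2, which removes ribonucleotides from DNA, fell, with Rnaseh2a at -0.48 ± 0.0358 and Rnaseh2c at -1.58 ± 0.0452. Of 9 genes of deoxynucleotide synthesis 3 rose and 6 fell, and after the coding length offset 5 were called higher and 4 lower. Samhd1, which degrades deoxynucleotides, rose by 0.90 ± 0.0392, and Dctpp1, a pyrophosphatase of the same pool, fell most, with 130 and 123 CPM in RIP, against 411 and 432 CPM in input (-1.74 ± 0.0330). Thymidylate synthase, Tyms, fell (-0.75 ± 0.0414), and thymidine kinase, Tk1, rose by 0.26 ± 0.0410 but was called lower with total counts (-0.09).

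In chromatin assembly at forks 5 of 8 genes rose and 3 fell, and after the coding length offset 4 were called higher and 1 lower. Ssrp1, a subunit of the histone chaperone FACT, rose by 0.93 ± 0.0255, and Uhrf1, which recruits the maintenance DNA methyltransferase, by 1.68 ± 0.030. Slbp, which binds the end of histone messages, fell (-0.48 ± 0.0577), as did the histone chaperone gene Asf1b (-0.73 ± 0.0642). After the coding length offset both stood at -0.08 and neither was called.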

How the data were processed

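RIP and input RNA of testis cells was compared, with 2 libraries per group taken from the sample titles. The authors deposited raw read counts per gene; the submitters' processing notes name STAR 2.7.2b, featureCounts, Trimmomatic 0.36, cutadapt 4.1 and SAMtools, and the build GRCm38, with order, settings and annotation release not given in the sources used here. Libraries were made with a NEBNext Ultra RNA kit, per the labels' protocols. This kit keeps no strand information, so reads of overlapping genes cannot be told apart. Of nonzero counts 65.4% to 67.4% were even, a pattern that counting each mate separately gives, so the true precision may be lower than the counts imply.

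Symbols, positions and lengths come from GENCODE M21 (GRCm38), which names 52081 (94.1%) of the identifiers; for 0 of the 46 members does the version number match, so the counted gene models can differ. Coding length is that of 1 transcript per gene, by APPRIS rank. Genes were kept by filterByExpr, scaled by TMM (factors 0.880, 0.892, 1.13 and 1.13) and tested with edgeR 4.0.16 in R 4.3.3 (robust quasi-likelihood, Benjamini-Hochberg adjustment over all genes tested, threshold 0.05). The SE was taken as |log2 fold change| over the root of the F statistic. Replicates of a group differed by 1.16 (RIP) and 1.19 (input) times sampling noise in a chi-square statistic of halved counts and were kept apart; the labels do not say that they are separate preparations, so the spread behind the p-values may be only technical. The length offset is a loess curve (span 0.3). The steps were tested on simulated data. Alternatives were other scalings and filters, DESeq2 1.42.0, halved counts, a replicate block, length offsets and leaving out each library.

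The members, lists and complexes were chosen with earlier results of these data known. All 46 members are named, with values per library for the 2 highest and 2 lowest of each larger sub-group, and of the other lists the 2 called genes of highest mean CPM per direction; Orc1, Gins3, Pcna and Rfc1 got values per library, and Timeless was added, after their values were seen.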

Additional observations from a re-analysis of the deposited data

How the results depend on the processing

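The replicate number as a block left 24 replication genes higher and 19 lower, and changed no call; same-numbered libraries did not deviate together (correlation 0.00777), so the numbers were not taken to pair them. Over the 4 fits that leave out 1 library, the count was 24 higher in each and 14 to 16 lower, with 15 higher and 2 to 3 lower by at least 2-fold. DESeq2 called 24 higher and 16 lower.

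Upper-quartile scaling and total counts each called 9 genes at least 2-fold higher, and 6 and 7 at least 2-fold lower, because they lower the fold changes of all genes. The coding length offset called 5 and 1 by that rule. The exonic length offset called 29 genes higher and 12 lower, 10 and 0 of them by at least 2-fold.

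Signs turned with upper-quartile scaling and total counts for Orc3 (-0.26 and -0.27), Prim2 (-0.05 and -0.05) and Rpa2 (-0.30 and -0.31). With the coding length offset they turned for Orc3 (-0.51), Gmnn (0.11), Gins1 (0.19), Gins2 (0.11), Pole3 (0.22), Rfc5 (0.09), Pcna (0.28) and Rpa3 (0.28), and with the exonic length offset for Orc3 (-0.22), Gmnn (0.38), Gins1 (0.39), Pold2 (0.60), Pcna (0.32) and Rpa3 (0.30). These turns follow from the scaling or offset itself. Why the changes went with length was not tested. The lowest level in any library was 5.01 CPM, for Fen1.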

Other observations

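Before the offset, the length of the 3' untranslated region and coding GC content went with the changes less closely than coding length did. Correlations of transcript length and exonic length with the changes were not computed. Across the 46 replication genes Spearman's rho with log2 fold change was -0.03 for the length of the 3' untranslated region and 0.21 for the GC content of the coding sequence, against 0.27 and 0.03 across 14680 tested genes with a coding sequence. After the coding length offset, rho with GC content was 0.40 and with the 3' untranslated region 0.09, and with coding length itself 0.29. These values after the offset were computed for the 46 genes only. The coding GC content ran from 36.6% in Orc4 to 62.5% in Cdt1. Both genes have coding sequences of 1000 to under 2000 nt, and Cdt1 rose while Orc4 fell. Within that length class Cdc6 (50.3%) rose most, and Pold2 (58.4%) and Rfc2 (54.5%) were called lower. A part of GC content in the changes was not tested. These correlations are across genes of the same 4 libraries, and genes are not independent replicates.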
